A study of Mus musculus with 12 samples.

Results

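Kinesins are motor proteins that move along microtubules or take them apart, and the mouse genome encodes most of them in the Kif and Kifc genes. The 35 kinesin genes described here are those with a probe on the array whose RefSeq accession matched a current symbol made of Kif and a number, or the symbol Kifc3 or Kifc5b, out of 45 such genes in the annotation and 17178 genes with a matched probe. They were sorted by textbook function into mitotic kinesins (12 genes), transport kinesins (16 genes) and a class of cilium or other kinesins (7 genes). The sorting was done with earlier results of these data known. The 10 of the 45 without a matched probe were Kif7, Kif14, Kif16bos, Kif19a, Kif22-ps, Kif26b, Kif28, Kif4-ps, Kifc1 and Kifc2, and they are not analysed here. Of these, Kif16bos is annotated as a long non-coding RNA, and Kif22-ps and Kif4-ps as pseudogenes.

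RNA came from NIH3T3, an established line of mouse embryonic fibroblasts. The cultures received DMSO, the solvent used as control, or rapamycin at 50 nM, or PP242 at 2 µM, each for 18 h, and each group had 4 one-colour arrays, named by replicate number below. The treatment protocol gives 2 mM for PP242, whereas the design text and the sample characteristics give 2 µM, which is used here. Rapamycin binds mTOR, a kinase that couples nutrients and growth factors to growth, through a partner protein and blocks mainly its complex mTORC1, whereas PP242 occupies the ATP pocket of the kinase and reaches mTORC2 as well. The design text describes the 4 samples of a group as independent experiments, and p-values measure the spread between them. The doses differ, so values of the 2 compounds compare these treatments and not matched doses. NIH3T3 is an immortal line that divides rapidly in culture, and many transport kinesins are best known from other cells, mainly neurons.

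Mitotic kinesins push spindle poles apart, move and align chromosomes, and build the midzone at which a dividing cell is cut in 2. Many of their genes are transcribed late in the cell cycle, mainly in G2 and mitosis, and are repressed in resting cells by complexes that bind the cell cycle homology region, CHR. Transport kinesins carry organelles, vesicles and RNA along microtubules in dividing and resting cells alike, and a few kinesins serve the primary cilium, which fibroblasts grow when they stop cycling.

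Levels are log2 of the processed intensity over the array's 75th percentile, so 0 is the 75th percentile of that array, and levels of different probes are not comparable. On 8 arrays this percentile was 261 to 420 times the 25th, and on the other 4 (DMSO 2, rapamycin 3, PP242 1 and PP242 4) it was 7.12 to 51.1 times, with dim probes reading high. On those 4 arrays 78.0% to 97.9% of probes were well above background, against 55.8% to 60.5% on the 8. Tests are from the 8 arrays (3 DMSO, 3 rapamycin, 2 PP242) unless all 12 are named. PP242 has 2 arrays in these tests, and the array number limits the precision. Of the fibroblast markers, 10 of 12 were well above background on all 8 arrays, including Col1a1, Col1a2 and Vim. Of the defining markers of other cell types, Epcam, Cdh1, Pecam1, Cdh5, Snap25 and Syt1 were well above background on none, while Cd3e, a marker of T cells, was above it on all 8 at a mean level of -4.93. Of the 7 markers of other cell types that could be tested, 0 passed between PP242 and DMSO in the limma fit, and 1 (Vwf, an endothelial gene, 1.05 ± 0.34) had an unadjusted p under 0.05.

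The kinesins split by class under PP242. All 11 mitotic kinesins that could be tested fell relative to DMSO, by 1.48 to 1.92 on the log2 scale (2.79-fold to 3.79-fold), with a median of -1.59. Of 12 tested transport kinesins, each read by its brightest probe, Kif3a and Kif1b were called higher and 0 lower, with a median of 0.42, but other probes of Kif1b went the other way. Among 5 tested kinesins of the cilium or other class Kif24 fell. Kif2a, a depolymerase of the spindle and cilium, was placed in this class and did not pass (-0.08 ± 0.21). The mitotic count therefore depends on the sorting. Kif9 entered the tests through its PP242 arrays, and no rise is claimed for it. Over all 19669 genes tested, 12.9% were lower and 12.9% were higher by the same test (limma, Benjamini-Hochberg adjusted p under 0.05), and the median change was -0.01. The count of transport kinesins called higher was near that share, and the mitotic count was far above it. With each array centred on its median instead, the split of all genes was 2163 lower and 1366 higher, against 2547 and 2540. Under rapamycin none of the 28 tested kinesins passed. In cultures, fewer dividing cells and less RNA per dividing cell cannot be told apart by these arrays.

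The raised arrays bear on this split. With all 12 arrays 34 kinesins could be tested and 0 passed in the limma fit, where 0.379% of 25581 genes did. At an unadjusted p under 0.05 there were 12 lower and 1 higher kinesin, against 9.1% of all genes in either direction. In that fit the 11 mitotic kinesins also tested on the 8 arrays were at -1.54 (Kif20a) to -1.1 (Kif15), while the median of all genes was 0.38. Their unadjusted p ran from 0.00159 (Kif4) to 0.0482 (Kif18a) and their limma adjusted p from 0.117 to 0.541. Kif2b, well above background on 1 of the 8 arrays and 5 of all 12, entered this limma fit only, at 1.81 (unadjusted p = 0.456). For each of the 11 genes the 4 PP242 arrays lay below the 4 DMSO arrays, as they did for 13.8% of all genes on 12 arrays.

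**Figure D1:**
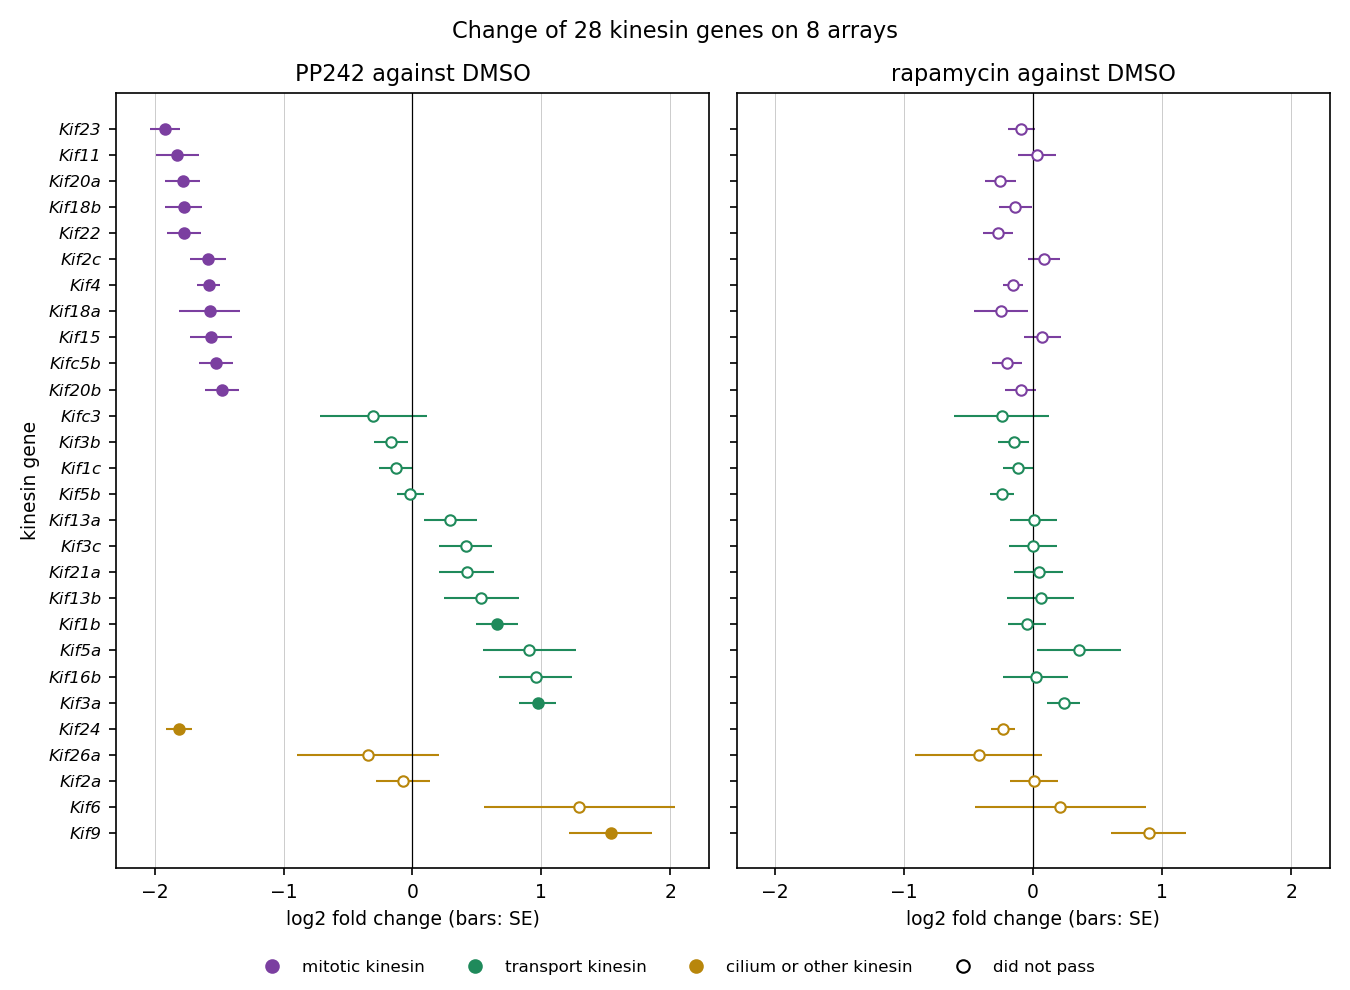
Log2 fold change (horizontal axis, bars show the SE) of each of the 28 tested kinesin genes (vertical axis) on 8 arrays, for PP242 against DMSO on the left and rapamycin against DMSO on the right. Filled points passed the limma test and open points did not. The 11 mitotic kinesins lie between -1.92 and -1.48 on the left and between -0.27 and 0.09 on the right.

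The promoter windows of the tested kinesins were searched for motifs, since the mitotic genes moved together. The windows are RefSeq's of build GRCm38.p6, from 250 bases before the start of a gene to 50 after it. They were available for 10 of the 11 tested mitotic kinesins (not Kif20a), 8 of 12 transport kinesins and all 5 of the other class. Both strands were searched for the CHR letters TTTGAA or TTCGAA, for the CCAAT box bound by NF-Y, and for the E2F letters TTTGGCGC, TTTGCCGC, TTTCGCGC or TTTCCCGC. Matches of different motifs did not overlap in these windows, and those of Kif15 were the only 2 of different motifs that touch. The CHR letters stood in 9 of 10 mitotic promoters (90%), in 0 of 9 promoters of the 8 transport kinesins, and in 1 of 7 promoters of the other class, that of Kif24. They stood in 19.2% of all 32851 promoters. Within 35 bases either side of the start, a width chosen after the positions were seen, the letters stood in 8 of 10 mitotic promoters, in 0 of 9 transport promoters and in 3.72% of all promoters.

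The CCAAT letters stood in 6 of 10 mitotic promoters, in 4 of 9 transport promoters and in 37.4% of all promoters. The E2F letters stood in 2 of 10 mitotic promoters, those of Kif15 and Kif18a, in 0 of 9 transport promoters and in 2.26% of all promoters. These letters were settled after an earlier scan with a partly different set. Kif18a was the mitotic kinesin without CHR letters among the 10. Its fall (-1.57) lay inside the range of the others. A match is a string of letters and not a measured binding site.

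The sequences below run 5′ to 3′ on the strand of the gene and show where these letters lie. Capitals mark matches of the 3 motifs on either strand, so ATTGG is a CCAAT box, TTCAAA is TTTGAA and GCGCCAAA is TTTGGCGC read on the other strand. The first 4 windows begin 140 bases before the start, and that of Kif4 runs to base 30 of the transcript because its CHR letters lie at bases 20 to 25. The other 5 are 30 bases around the match nearest the start, with the transport kinesin Kif3a, which has a CCAAT box and no CHR letters, for contrast. In Kif15 the run of capitals is an E2F match followed directly by a CHR match.
Kif11: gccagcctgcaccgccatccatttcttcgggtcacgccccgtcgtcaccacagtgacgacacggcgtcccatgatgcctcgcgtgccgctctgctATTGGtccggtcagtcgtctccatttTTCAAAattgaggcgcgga
Kif15: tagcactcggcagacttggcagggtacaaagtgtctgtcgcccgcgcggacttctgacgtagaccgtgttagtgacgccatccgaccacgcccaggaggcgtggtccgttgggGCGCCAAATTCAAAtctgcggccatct
Kif18a: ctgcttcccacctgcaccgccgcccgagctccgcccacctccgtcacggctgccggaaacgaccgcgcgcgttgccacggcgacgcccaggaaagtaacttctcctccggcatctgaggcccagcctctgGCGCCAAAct
Kif4: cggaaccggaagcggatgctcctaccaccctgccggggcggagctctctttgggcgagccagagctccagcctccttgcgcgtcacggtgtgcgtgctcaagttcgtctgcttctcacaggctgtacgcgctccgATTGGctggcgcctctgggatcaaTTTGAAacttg
Kif22: ggggccccggtaaTTCAAAagagagaagcg
Kif23: caggcggccgctgATTGGcctgTTTGAAat
Kif18b: gcgcggatgagcggaccggctagTTTGAAc
Kif24: cgtcggcgcgcgcgTTCGAActggcgcttg
Kif3a: agcccaggacacccgagATTGGgcggggcg

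On GRCm38.p6 the printed windows are chr19:37376242-37376381 (Kif11, plus strand), chr9:122950941-122951080 (Kif15, plus strand), chr2:109280598-109280737 (Kif18a, plus strand) and chrX:100625925-100626094 (Kif4, plus strand). The short windows are chr7:127042421-127042450 (Kif22, minus strand), chr9:61946790-61946819 (Kif23, minus strand), chr11:102925115-102925144 (Kif18b, minus strand), chr4:41464859-41464888 (Kif24, minus strand) and chr11:53567334-53567363 (Kif3a, plus strand). The windows of Kif11, Kif15 and Kif18a end at the base before the annotated gene, and that of Kif4 runs into it. For Kif22, Kif23, Kif18b, Kif24 and Kif3a the annotated gene reaches upstream of the start used, so their windows lie partly or wholly inside it.

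**Figure D2:**
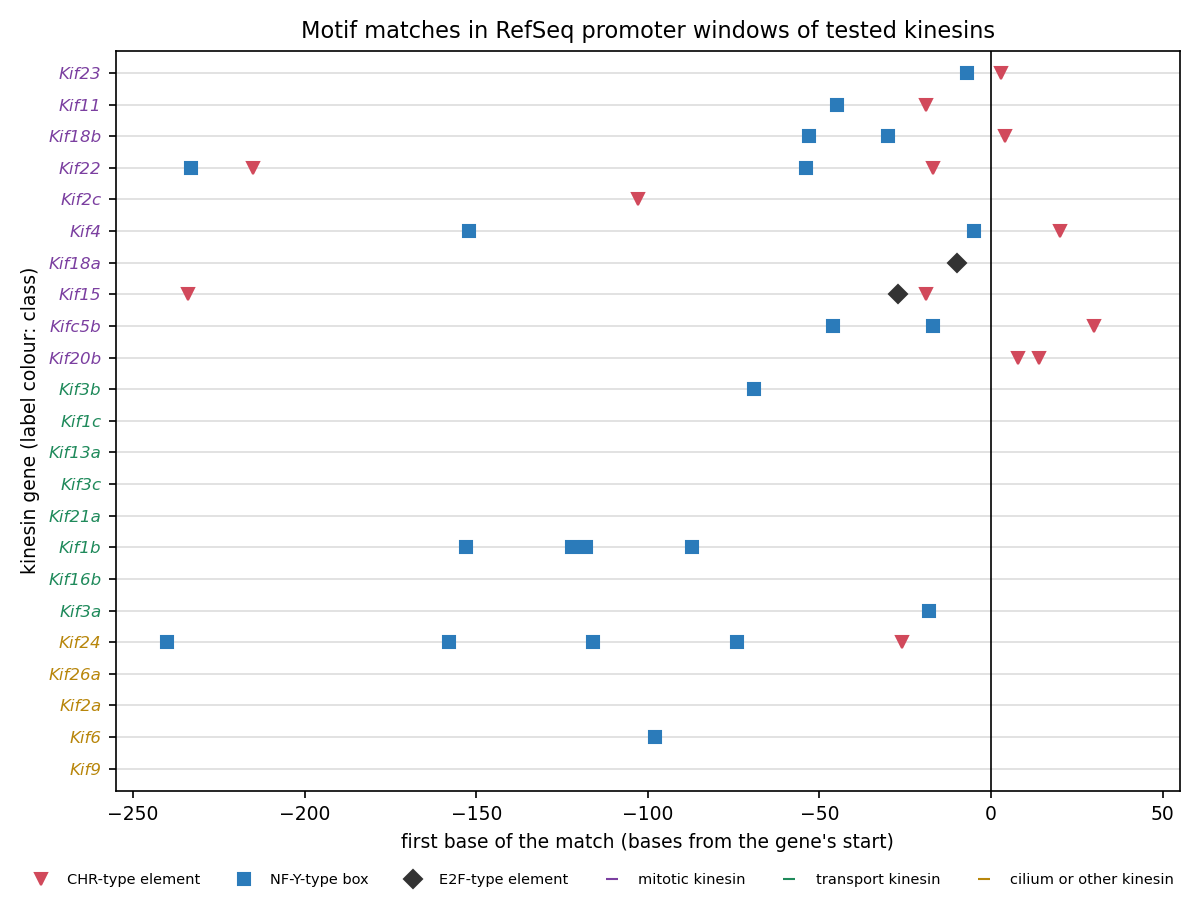
Position of motif matches on either strand (horizontal axis, bases from the start of the gene; the vertical line is the start) in the promoter windows of the tested kinesins (vertical axis, label colour by class). Triangles are CHR-type elements, squares NF-Y-type boxes and diamonds E2F-type elements, and all starts of a gene are drawn on its line. CHR-type elements lie within 35 bases of the start in 8 mitotic kinesins and in Kif24, and none lies in a transport kinesin.

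Motors that hold the spindle bipolar come first. Kif11, known as Eg5, is a tetramer that slides antiparallel microtubules and so separates the poles. Its levels on DMSO 1 to 4 were 1.01, 1.00, 1.13 and 1.14, on rapamycin 1 to 4 they were 0.94, 1.00, -0.26 and 1.44, and on PP242 1 to 4 they were -0.41, -0.78, -0.67 and 0.51. All 4 PP242 arrays lay below all 4 DMSO arrays, and the raised array rapamycin 3 lay below the other 3 of its group. Kif11 fell by 1.82 ± 0.16 with PP242 (SE, n = 2 and 3; 3.54-fold, limma adjusted p = 0.000932). Kif15 is a plus-end motor that can take over from Kif11. Its levels were -0.40, -0.35, -0.32 and -0.03 on DMSO 1 to 4, -0.10, -0.37, -0.61 and -0.06 on rapamycin 1 to 4, and -1.45, -1.71, -1.91 and -0.43 on PP242 1 to 4. The raised array PP242 4 lay just below the lowest DMSO array and the other 3 PP242 arrays lay well below it. Kif15 fell by 1.56 ± 0.16 (limma adjusted p = 0.00143).

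Kifc5b is a minus-end-directed motor that focuses spindle poles. It is a near-identical copy of Kifc1, for which no separate probe was matched, so the signal of this probe may come from either gene. Its levels were 1.88, 1.67, 1.77 and 1.71 on DMSO 1 to 4, 1.40, 1.63, -0.52 and 1.70 on rapamycin 1 to 4, and 0.17, 0.14, 0.37 and 0.62 on PP242 1 to 4. The 4 PP242 arrays lay together below every DMSO array, and of the rapamycin arrays rapamycin 3 alone lay as low. The probe fell by 1.53 ± 0.13 (2.88-fold, limma adjusted p = 0.000861).

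Motors of the chromosomes and of microtubule ends form the next set. Kif22, a chromokinesin that pushes chromosome arms away from the poles, read 4.63, 4.63, 4.54 and 4.51 on DMSO 1 to 4, 4.12, 4.23, 2.01 and 4.51 on rapamycin 1 to 4, and 2.93, 2.78, 2.79 and 3.96 on PP242 1 to 4. The 4 DMSO arrays lay close together, and every PP242 array lay below them. Kif22 fell by 1.77 ± 0.13 (3.42-fold, limma adjusted p = 0.000552). Kif4, a chromokinesin that also works with the bundler Prc1 at the midzone, read 2.62, 2.54, 2.65 and 2.51 on DMSO 1 to 4, 2.46, 2.39, 1.5 and 2.45 on rapamycin 1 to 4, and 1.1, 1.03, 1 and 1.98 on PP242 1 to 4. The raised arrays rapamycin 3 and PP242 4 stood apart from their groups in opposite directions. Kif4 fell by 1.58 ± 0.09 (2.99-fold, limma adjusted p = 0.000425), with the smallest SE of the 11.

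Kif18a shortens microtubules at kinetochores and damps the swing of aligned chromosomes. It read 0.35, 0.10, 0.41 and 0.78 on DMSO 1 to 4, 0.10, 0.01, -1.92 and 0.68 on rapamycin 1 to 4, and -0.92, -1.02, -1.1 and 0.05 on PP242 1 to 4. Its DMSO arrays were the most spread of the mitotic kinesins, and PP242 4 lay just below the lowest of them. Kif18a fell by 1.57 ± 0.24 (limma adjusted p = 0.0051), and with slide as a block it did not pass (-1.41, limma adjusted p = 0.0579). Its relative Kif18b read -0.20, -0.39, -0.09 and -0.26 on DMSO 1 to 4, -0.38, -0.52, -2.10 and -0.07 on rapamycin 1 to 4, and -1.70, -1.95, -1.97 and -0.91 on PP242 1 to 4. The PP242 arrays lay below the DMSO arrays without overlap, and Kif18b fell by 1.77 ± 0.15 (limma adjusted p = 0.000726).

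Kif2c, known as MCAK, does not walk but strips tubulin from microtubule ends at centromeres. It read 0.77, 0.96, 0.88 and 0.94 on DMSO 1 to 4, 0.79, 0.94, -0.01 and 1.12 on rapamycin 1 to 4, and -0.39, -0.85, -0.60 and 0.75 on PP242 1 to 4. PP242 4 lay just below the lowest DMSO array and the other 3 PP242 arrays lay well below it. Kif2c fell by 1.59 ± 0.14 (3.00-fold, limma adjusted p = 0.000861). The remaining member of this set, Kif2b, a depolymerase first known from testis, was well above background on 1 of the 8 arrays, with a mean level of -8.78, and was not tested.

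Motors of the midzone and of cytokinesis close the class. Kif23, known as MKLP1, forms centralspindlin with Racgap1. It read 2.50, 2.35, 2.55 and 2.52 on DMSO 1 to 4, 2.26, 2.43, 0.73 and 2.60 on rapamycin 1 to 4, and 0.93, 0.61, 0.59 and 1.78 on PP242 1 to 4. The DMSO arrays lay together and the PP242 arrays lay below them, PP242 4 nearest. Kif23 had the lowest log2 fold change of the 11 at -1.92 ± 0.12 (3.79-fold lower, limma adjusted p = 0.000425). Kif20a, known as MKLP2, brings the Aurora B complex to the midzone. It read 4.42, 4.3, 4.32 and 4.28 on DMSO 1 to 4, 4.00, 3.93, 1.79 and 4.31 on rapamycin 1 to 4, and 2.48, 2.51, 2.60 and 3.59 on PP242 1 to 4. Rapamycin 3 was here lower than every PP242 array. Kif20a fell by 1.78 ± 0.14 (3.44-fold, limma adjusted p = 0.000577).

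Kif20b, which acts in the final cut between daughter cells, read 1.40, 1.29, 1.58 and 1.16 on DMSO 1 to 4, 1.27, 1.32, -0.33 and 1.26 on rapamycin 1 to 4, and 0.15, -0.14, -0.06 and 0.66 on PP242 1 to 4. The PP242 arrays lay below the DMSO arrays, and the 3 rapamycin arrays of the 8 lay inside the DMSO range. Kif20b fell by 1.48 ± 0.13 (2.79-fold, limma adjusted p = 0.000942). Neighbours in the order of these falls differed by less than their SE, except at the step from Kif22 (-1.77) to Kif2c (-1.59), so the order within the class is not resolved. Of the 5 mitotic kinesins with more than 1 probe kept, every further probe was lower with PP242 as well: Kif11 at -2.41 ± 0.40, Kif15 at -2.05 ± 0.31, Kif4 at -1.56 ± 0.11, Kif23 at -1.90 ± 0.12, and Kif20b at -1.81 ± 0.20 and -2.01 ± 0.20.

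**Figure D3:**
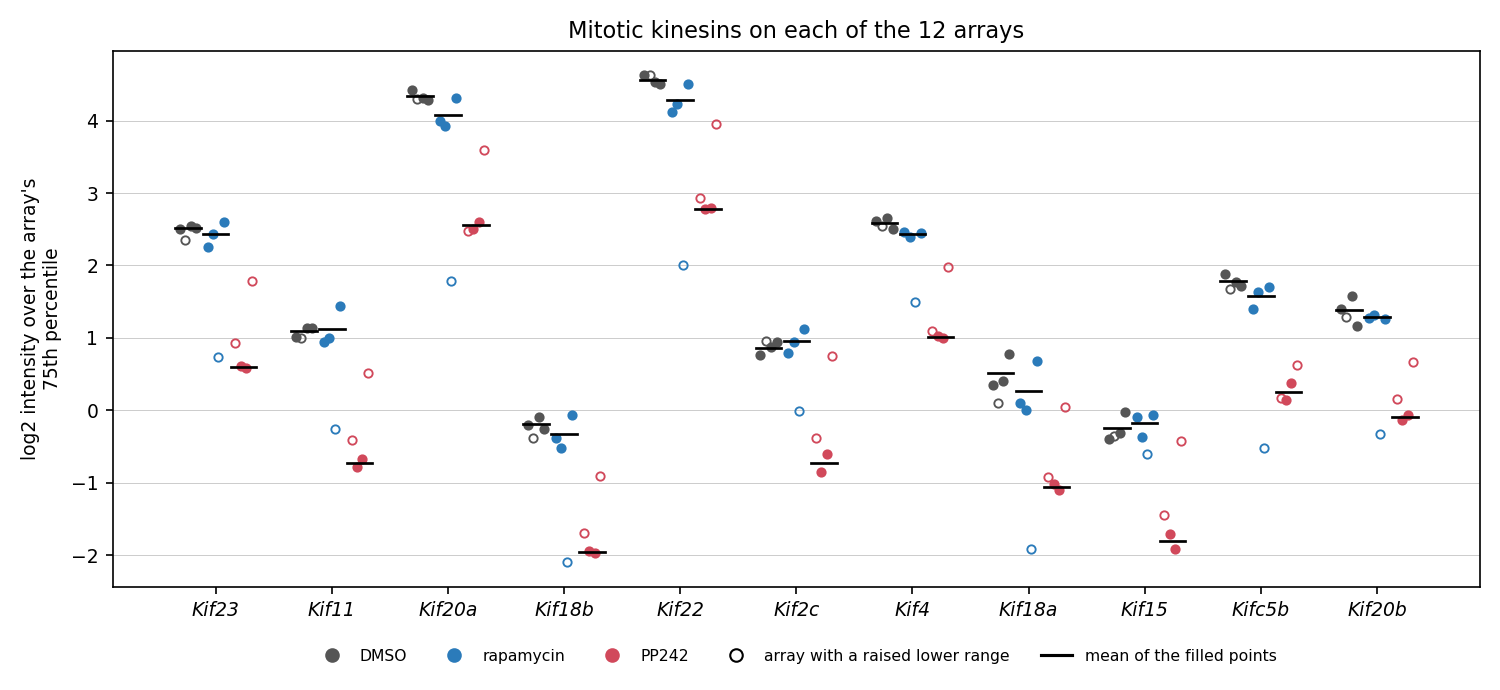
Level of the 11 tested mitotic kinesins (horizontal axis) on each of the 12 arrays, as log2 intensity over the array's 75th percentile (vertical axis). Filled points are the 8 arrays used in the tests, open points the 4 arrays with a raised lower range, and lines the mean of the filled points of a group. PP242 points lie below DMSO points for every gene, and the open rapamycin point, rapamycin 3, lies below the filled rapamycin points of its gene.

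The class moved on each PP242 array. Taken as the median over the 11 mitotic genes of the difference from the DMSO mean of each gene, the arrays PP242 1 to 4 were at -1.5, -1.71, -1.66 and -0.61, and DMSO 1 to 4 at -0.02, -0.09, 0.02 and -0.05. PP242 4, with a ratio of percentiles of 13.6, was the highest of the PP242 arrays. Rapamycin 1, 2 and 4 were at -0.20, -0.16 and 0.08, and rapamycin 3, with the lowest ratio of percentiles (7.12), was at -1.79. The part of the raised range in these values was not tested. Within slide 1, the slide of the 8-array comparison that holds both groups, the median difference of PP242 from DMSO was -1.70 with all 11 genes lower. On all 12 arrays it was -1.05 within slide 2 and -1.55 within slide 3, with all 11 genes lower in each. Slide 1 sets PP242 2 against DMSO 1 and DMSO 4, and slide 3 sets PP242 1 against DMSO 3. Slide 2 sets PP242 3 and PP242 4 against DMSO 2. The genes of an array are not replicates, and DMSO 2, PP242 1 and PP242 4 are raised arrays.

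The transport kinesins were at 0.02, -0.01, 0.06 and -0.16 on DMSO 1 to 4 by the same measure, at 0.01, -0.06, -0.81 and -0.09 on rapamycin 1 to 4 and at 0.53, 0.40, 0.38 and 0.12 on PP242 1 to 4. Rapamycin 3 was again the lowest array, and the PP242 medians were above 0 on each array. With median centring of all 12 arrays the median of the 15 transport kinesins that could then be tested was -0.28 for PP242 against DMSO, where the median of all genes was -0.43, so the sign of this median depends on the scaling, and that of the mitotic class did not (-2.19 over 12 genes).

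**Figure D4:**
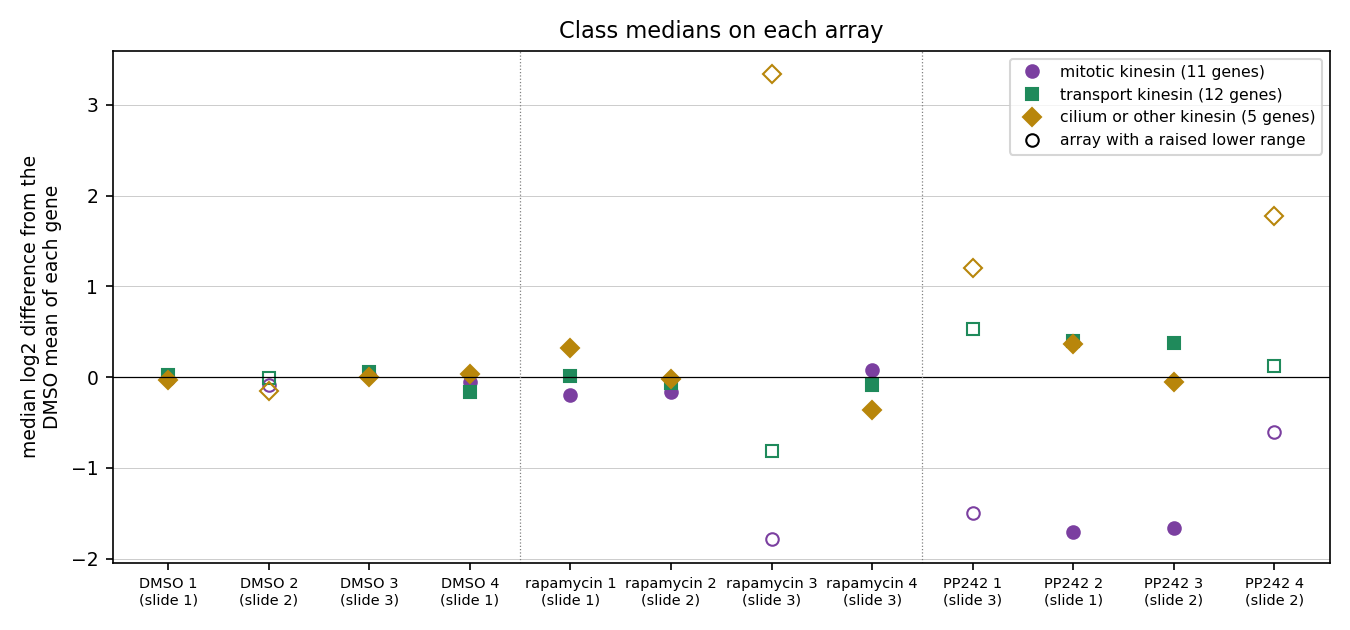
Median over the genes of a class of the log2 difference from each gene's DMSO mean (vertical axis) on each array (horizontal axis, with its slide). Filled symbols are the 8 arrays used in the tests and open symbols the 4 arrays with a raised lower range. Mitotic kinesins are at -1.66 and -1.71 on the filled PP242 arrays and between -0.20 and 0.08 on the filled rapamycin arrays.

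Among the transport kinesins, Kif3a is the motor subunit of heterotrimeric kinesin-2, which carries cargo along the cilium. Its levels were 0.48, 0.55, 0.51 and 0.75 on DMSO 1 to 4, 0.96, 0.88, 0.50 and 0.61 on rapamycin 1 to 4, and 1.21, 1.53, 1.57 and 0.92 on PP242 1 to 4. The PP242 arrays lay above the DMSO arrays, and the rapamycin arrays overlapped both groups. Kif3a rose by 0.97 ± 0.14 with PP242 (1.96-fold, limma adjusted p = 0.00474). Its further probe was at 0.38 ± 0.11. On all 12 arrays the difference was 0.74 (limma adjusted p = 0.257), and with median centring of the 12 arrays it was -0.10. Its partners in the motor were Kif3b at -0.17 ± 0.13 and Kif3c at 0.41 ± 0.21, which did not pass, and the subunit Kifap3, which rose by 0.49 ± 0.10 (limma adjusted p = 0.0158).

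Kif1b moves mitochondria and synaptic vesicle precursors, and the gene makes products with different cargo-binding tails. Its brightest probe, of accession NM_207682, read 0.72, 0.82, 0.83 and 0.57 on DMSO 1 to 4, 0.76, 0.83, -0.09 and 0.37 on rapamycin 1 to 4, and 1.16, 1.42, 1.3 and 0.40 on PP242 1 to 4. PP242 1, 2 and 3 lay above all DMSO arrays and the raised PP242 4 lay below them. This probe rose by 0.65 ± 0.17 (1.57-fold, limma adjusted p = 0.0307). The probes of the gene's other accession, NM_008441, went the other way. The brighter of them read -1.49, -1.45, -1.51 and -1.36 on DMSO 1 to 4, -1.79, -1.79, -1.15 and -1.48 on rapamycin 1 to 4, and -1.76, -2, -2.22 and -1.69 on PP242 1 to 4. All 4 PP242 arrays lay below all DMSO arrays for that probe, at -0.65 ± 0.14 (unadjusted p = 0.00255, limma fit across probes).

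The dimmer probes of Kif1b were at 0.36 ± 0.22 for NM_207682 and -0.36 ± 0.28 for NM_008441, so the probes of an accession shared a sign and the accessions differed. Averaged over its 4 probes Kif1b was at 0.00 (limma adjusted p = 0.998), and a direction for the gene as a whole is not given by these probes. The call of the brightest probe was also lost on leaving out DMSO 1, DMSO 3, DMSO 4 or rapamycin 1 (limma adjusted p from 0.053 to 0.076). Leaving out PP242 2 or PP242 3 ended it too. So did a block for slide (limma adjusted p = 0.18) or for replicate number (limma adjusted p = 0.068). With median centring of all 12 arrays the value of this probe was -0.50.

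The other 10 tested transport kinesins did not pass. Kif16b, which carries early endosomes, was at 0.95 ± 0.29 (limma adjusted p = 0.0524), the nearest to the threshold, with its further probe at 0.70 ± 0.24. Kif5a, a conventional kinesin heavy chain of neurons, was at 0.91 ± 0.36, and the ubiquitous heavy chain Kif5b at -0.02 ± 0.10. Kif1c, Kif13a, Kif13b, Kif21a and Kifc3 lay between -0.30 and 0.53. Kifc3 read 0.83, 0.82, 0.81 and 1.73 on DMSO 1 to 4, so DMSO 4 stood apart from its group, and its SE (0.41) was the largest of the transport class. The transport kinesins Kif1a, Kif5c, Kif17 and Kif21b were well above background on 0 or 1 of the 8 arrays and were not tested. Kif1a, Kif5c and Kif21b are known mainly from neurons.

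In the remaining class Kif24 moved with the mitotic genes. Kif24 is a depolymerase at centrioles that keeps cilia from forming in cycling cells. Its levels were -3.49, -3.57, -3.46 and -3.43 on DMSO 1 to 4, -3.71, -3.56, -3.39 and -3.82 on rapamycin 1 to 4, and -4.38, -5.26, -5.29 and -3.63 on PP242 1 to 4. The PP242 arrays lay below the DMSO arrays, PP242 4 only just. Kif24 fell by 1.81 ± 0.10 (3.51-fold, limma adjusted p = 0.000425), and it passed in every alternative run on the 8 arrays. The size was less certain: its only probe was dim (mean level -4.00), and over all alternatives the difference ran from -2.44 to -0.63. On 12 arrays it was at -1.15 (limma adjusted p = 0.25).

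Kif9, a kinesin of motile cilia and sperm flagella, was well above background on 0 of the 3 DMSO arrays, 1 of the 3 rapamycin arrays and both PP242 arrays of the 8. It read -7.26, -6.58 and -6.17 on DMSO 1, 3 and 4 (its spot on DMSO 2 was left out as an outlier), -5.46, -5.95, 0.30 and -5.91 on rapamycin 1 to 4, and -1.70, -5.11, -5.16 and -1.32 on PP242 1 to 4. The raised arrays rapamycin 3, PP242 1 and PP242 4 lay far above the rest. Kif9 passed the filter on dim probes through the arrays on which it was high, so its call is no support for a rise. As processed, its PP242 mean was 2.19-fold over a floor set by the lowest signal well above background on the DMSO arrays. That floor is taken over all probes and is not a limit of this probe, so no least rise is given. The fitted difference moved with the background treatment, from 1.54 as processed to 0.44 without background subtraction and 0.16 after normexp correction. Kif2a, a depolymerase of the spindle and cilium, was at -0.08 ± 0.21, with further probes of the same accession at 0.01 ± 0.29 and 0.65 ± 0.27. Kif6 (1.29 ± 0.74) and Kif26a (-0.34 ± 0.55) did not pass, and Kif12 and Kif27 were above background on 0 and 1 of the 8 arrays.

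**Figure D5:**
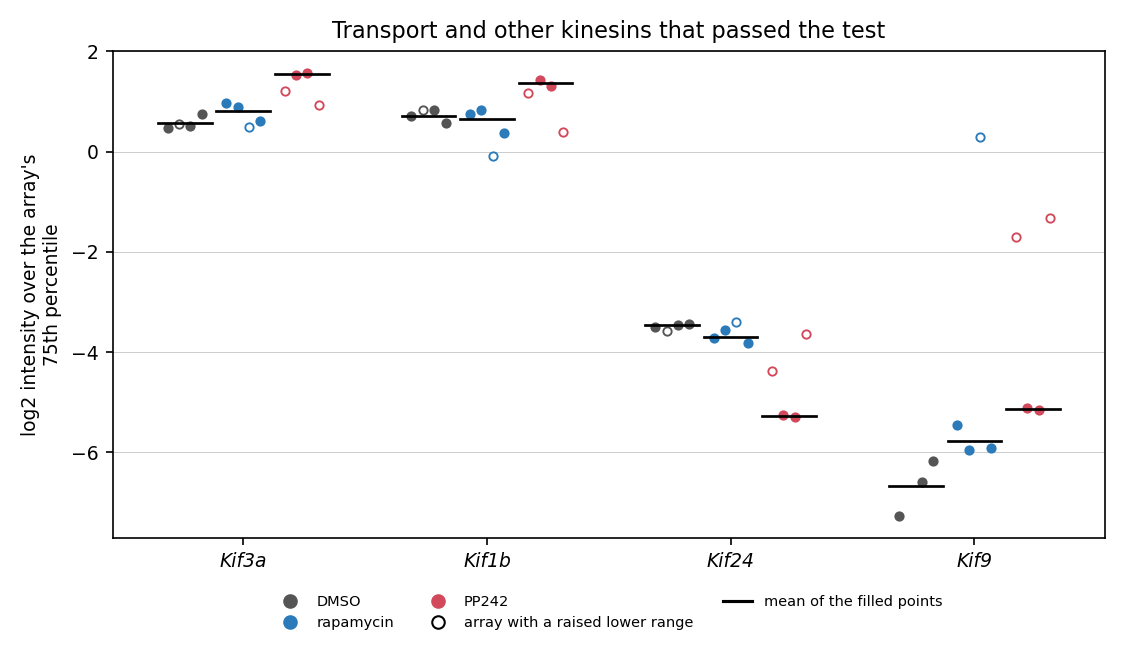
Level of the 4 transport or other kinesins that passed in a comparison (horizontal axis) on each array, as log2 intensity over the array's 75th percentile (vertical axis), from the brightest probe. Filled points are the 8 arrays used in the tests, open points the raised arrays, and lines the mean of the filled points. Kif3a and the brightest probe of Kif1b are higher on the filled PP242 arrays and Kif24 is lower, and for Kif9 the open points lie up to 0.30 while the filled points lie between -7.26 and -5.11.

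Rapamycin was compared with DMSO on the same 3 DMSO arrays, so the comparisons share their control. Of all genes 0.0254% passed this test (5 of 19669, limma) and 13.1% had an unadjusted p under 0.05. None of the 28 kinesins passed, and 3 had an unadjusted p under 0.05: Kif5b (-0.24 ± 0.09), Kif24 (-0.23 ± 0.09) and Kif9. The last was well above background on 0 of the 3 DMSO arrays and 1 of the 3 rapamycin arrays, so no difference is given for it. The 11 mitotic kinesins had a median of -0.14 and ranged from -0.27 ± 0.12 (Kif22, limma adjusted p = 0.397) to 0.09 ± 0.12 (Kif2c), with 8 of 11 below 0. Their groups did not overlap for Kif22, Kif4 and Kifc5b, which were lower on the rapamycin arrays, as were 10.3% of all genes. Within slides 1 and 3 the mitotic median was -0.15 (rapamycin 1 against DMSO 1 and DMSO 4) and 0.02 (rapamycin 4 against DMSO 3).

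The 12 transport kinesins had a median of 0.00 under rapamycin and ranged from -0.24 (Kifc3) to 0.36 (Kif5a). On all 12 arrays the median of the 12 mitotic kinesins then tested was -0.48 and that of all genes 0.17, with rapamycin 3 in the group. In that fit 0 kinesins passed by limma or had an unadjusted p under 0.05 (1.8% of all genes had one). A small difference cannot be told from 0 with 3 arrays a group, so the absence of a call does not show that these genes stayed level.

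PP242 was then set against rapamycin directly, which tests the difference of the treatments. All 11 mitotic kinesins were lower with PP242, by 1.32 to 1.86, with a median of -1.53 (limma adjusted p from 0.00106 to 0.0163), against 7.08% of all genes lower by this test and a median of 0.02. Kif11 had the lowest value, -1.86 ± 0.16, then Kif23 (-1.83 ± 0.12), Kif2c (-1.67 ± 0.14), Kif18b (-1.64 ± 0.15) and Kif15 (-1.63 ± 0.16), and Kifc5b had the highest, -1.32 ± 0.13. Kif24 was lower by -1.58 ± 0.10 (limma adjusted p = 0.00106). Kif3a was higher by 0.73 ± 0.14 (limma adjusted p = 0.021) and the brightest probe of Kif1b by 0.70 ± 0.17 (limma adjusted p = 0.0388), where 6.82% of all genes were higher. Both of these calls were lost without PP242 2, without PP242 3, without rapamycin 2 and with slide as a block, and that of Kif1b also without DMSO 1, DMSO 3 or rapamycin 1. Kif18a lost its call without PP242 2 or PP242 3 (limma adjusted p = 0.106 and 0.125) and with slide as a block (-1.23, limma adjusted p = 0.095).

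Within slide 1 and within slide 2 the 11 mitotic kinesins had a median difference between PP242 and rapamycin of -1.49 and -1.44 on the 8 arrays, with all 11 lower on both slides. These are single pairs of arrays, PP242 2 against rapamycin 1 and PP242 3 against rapamycin 2, and the genes of a pair are not replicates. On all 12 arrays the median of the 12 mitotic kinesins then tested, Kif2b among them, was -0.80. In that limma fit 0 kinesins passed, and 5 of the 12 had an unadjusted p under 0.05. The lowest p of these was that of Kif15 (-1.09, unadjusted p = 0.00707). On 12 arrays 4.16% of all genes had an unadjusted p under 0.05.

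Genes whose products work with mitotic kinesins moved as the motors did. Of 17 tested partners 16 fell with PP242 and 1 rose (median -1.64), where 12.9% of all genes were lower and 12.9% higher. Aurkb, the Aurora kinase carried by Kif20a, fell by 2.45 ± 0.15, Prc1, the midzone bundler that recruits Kif4, by 1.90 ± 0.10, Nusap1, a spindle microtubule binder, by 1.75 ± 0.11 and Racgap1, the partner of Kif23, by 1.59 ± 0.08 (limma adjusted p = 0.000425 for each). Numa1, which tethers dynein at spindle poles and was named after its value was seen, rose by 0.60 ± 0.13 (limma adjusted p = 0.0171). With rapamycin 0 of the 17 passed by limma, with a median of -0.14. At an unadjusted p under 0.05 there were 1 lower and 1 higher, against 13.1% of all genes in either direction. Set against rapamycin, 16 partners were lower with PP242, as were 7.08% of all genes. On all 12 arrays the PP242 median was -1.27, 0 passed by limma and 14 were lower with an unadjusted p under 0.05, as were 1002 of all 25581 genes.

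Adaptors link kinesins to cargo. Of 15 tested 4 rose and 1 fell with PP242, against 12.9% of all genes in each direction, with a median of 0.28 (0.09 on 12 arrays). The kinesin light chain Klc4 rose by 1.68 ± 0.14 (limma adjusted p = 0.000728) and Klc3 by 0.79 ± 0.17, and the scaffold Mapk8ip1, also called JIP1, rose by 0.77 ± 0.10. Kifap3, the kinesin-2 subunit, is given above with Kif3a. Trak2, which ties kinesin to mitochondria and was named after its value was seen, fell by 0.35 ± 0.09 (limma adjusted p = 0.0319). Arl8b (0.07 ± 0.26), a lysosomal GTPase that recruits kinesin, and Mapk8ip3 (0.28 ± 0.12) did not pass. With rapamycin 0 of the 15 passed by limma, with a median of -0.08. At an unadjusted p under 0.05 there were 3 lower and 2 higher, against 13.1% of all genes in either direction. Set against rapamycin, 3 adaptors were higher with PP242 (6.82% of all genes).

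Cytoplasmic dynein and dynactin move cargo toward microtubule minus ends. Of 22 tested subunits and regulators 4 rose and 1 fell with PP242, counts near the 12.9% of all genes in each direction, with a median of 0.08 that was -0.10 on 12 arrays. The member that fell was Nde1, a dynein regulator at kinetochores and centrosomes, by 1.32 ± 0.14 (limma adjusted p = 0.00144). The dynactin subunits Dctn1, Dctn2 and Dctn4 rose by 0.62 ± 0.10, 0.66 ± 0.12 and 0.45 ± 0.09, and the dynein heavy chain Dync1h1, named after its value was seen, by 0.67 ± 0.14. The light chains Dynll1 (-0.28 ± 0.15) and Dynlt1b (-0.30 ± 0.13) did not pass. With rapamycin 0 of the 22 passed by limma or had an unadjusted p under 0.05, which 13.1% of all genes had (median 0.00). Set against rapamycin, 1 of these genes was lower and 3 were higher with PP242 (7.08% and 6.82% of all genes).

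Tubulins form the track of all these motors. Of 12 tested 7 fell and 1 rose with PP242, against 12.9% of all genes in each direction (median -0.70, and -0.57 on 12 arrays). Tubb4b fell by 1.71 ± 0.12 (limma adjusted p = 0.000539), Tuba1c by 1.20 ± 0.15, Tubg1, the gamma-tubulin that nucleates microtubules, by 1.18 ± 0.10 and Tuba4a by 0.84 ± 0.14. Tubb2b, named after its value was seen, rose by 0.71 ± 0.19 (limma adjusted p = 0.0343). Tubb5 (-0.32 ± 0.13) and Tuba1a (0.06 ± 0.22) did not pass. Tubulin genes are close copies, and how far their probes share signal was not tested. With rapamycin 0 of the 12 passed by limma, with a median of -0.11. At an unadjusted p under 0.05 there were 3 lower, against 13.1% of all genes in either direction. Set against rapamycin, 6 tubulins were lower and 1 was higher with PP242 (7.08% and 6.82% of all genes). On all 12 arrays 0 of the adaptors, dynein genes and tubulins passed in any comparison by limma. Under PP242 against DMSO 2 of 15 adaptors were higher at an unadjusted p under 0.05 in that fit. By the same measure 1 of 22 dynein genes was lower, and of 13 tubulins 3 were lower and 1 was higher. Of all genes 9.1% had such a p in either direction.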

How the data were processed

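The deposited scanner files give intensity per spot. Per the file headers, Agilent Feature Extraction 10.5.1.1 had subtracted the background and detrended each array to give the processed intensity; the submitters' processing notes name version 10.1. The deposited value table holds log2 values, per the file's values, made alike between arrays (column medians 8.54 to 8.56), in the order of the unsubtracted intensity (Spearman correlation at least 0.9999 on every array). No source here names its tool, and it served as an alternative. Per the labels, samples were grouped and numbered by title.

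Control spots and outlier-flagged spots (1.34% of probe values) were left out, log2 was taken and each array's 75th percentile subtracted. Of 26382 probes with a RefSeq accession 24844 matched a symbol. A probe was kept if 2 or more of the 8 arrays (4 of 12) read it well above background, and the brightest probe stood for a gene. Limma 3.58.1 (R 4.3.3, lmFit and eBayes) fitted the 3 groups together, two-sided, with Benjamini-Hochberg adjustment over all genes and a threshold of 0.05. The 8 arrays are those whose ratio of percentiles exceeds 100. That rule, the kinesins, their classes, the other lists, the motifs and the printed windows were chosen with earlier results of these data known; the E2F letters replaced a first, partly different set after an earlier scan. No saturated spot was found. Scripts were tested on simulated data.

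Every array's values were given for tested mitotic kinesins and for other kinesins that passed; in each further list up to 4 passing members by adjusted p and up to 2 others by level were named. Alternatives were all 12 arrays (also with array weights, slide or replicate blocks, quantile or median scaling), and on the 8 arrays both blocks, both scalings, normexp (offset 50), unsubtracted signal, the deposited table, 2 other filters, mean of probes, the 2 groups compared alone, an intensity trend and leaving out each array. Normexp used the median signal, since the files as used here hold no mean. No protein sequences were used here. The value of 1 marker gene is not reported here.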

Additional observations from a re-analysis of the deposited data

Results flagged for a closer look

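In 83 sets of 4 arrays of a group and kinesin, 17 had an array that stood apart from the other 3 by Dixon's test; chance flags about 1 in 20 such sets. Of these, 16 fell on the raised arrays rapamycin 3 and PP242 4. Rapamycin 3 was the lowest of its group for Kif20a (1.79), Kif20b (-0.33), Kif22 (2.01), Kif4 (1.5), Kifc5b (-0.52), Kif1c (0.38), Kif21a (-1.39) and Kif5b (2.05), and the highest for Kif13a (-0.78), Kif3b (-1.02) and Kif9 (0.30). PP242 4 was the highest of its group for the mitotic kinesins Kif18a (0.05), Kif20a (3.59), Kif22 (3.96) and Kif4 (1.98) and the lowest for Kif16b (-1.88), where the other 3 PP242 arrays lay between -0.76 and -0.65. The remaining case was Kifc3 on DMSO 4 (1.73), where DMSO 1 to 3 lay between 0.81 and 0.83.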

How the results depend on the processing

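The mitotic count for PP242 (11 lower against DMSO and 11 against rapamycin) was 10 or 11 in each alternative on the 8 arrays and 11 with array weights on 12. It was 0 in both comparisons with all 12 arrays, with slide as a block, with the replicate block, with quantile scaling and with median centring of them. The transport counts (2 and 2) were 0 and 0 in those 5 settings. They were 9 and 7 with array weights (10645 and 9084 of all 25581 genes were called), 1 and 0 with slide as a block, 0 and 0 with the replicate block, 1 and 0 with median centring, 1 and 1 without a filter, 3 and 0 with only the groups compared, and 4 against DMSO with normexp. Leaving out an array gave 1 to 4 and 0 to 2 transport calls, and 11 and 10 to 11 mitotic calls; without PP242 2 or PP242 3 the group has 1 array, assumed to vary like the other groups. For rapamycin against DMSO array weights gave 3 mitotic calls lower and 3 transport calls (3783 of all 25581 genes were called), and every other alternative gave 0, also each array left out (0 to 0). Array weights were 0.0148 for rapamycin 3 and 13.3 for PP242 2, so that setting is not a test on 12 equal arrays. Called values turned sign in 3 cases, none of them called: Kif1b (-0.50) and Kif3a (-0.10) against DMSO with median centring of 12 arrays, and Kif18a (0.40) against rapamycin with quantile scaling of 12. The cause was not tested.

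Whether same-numbered arrays pair was not settled. On 8 arrays 3 of 4 same-numbered pairs had correlated deviations over 0.1 (median 0.30, lowest -0.27). Of the pairs with different numbers 5 of 17 did (median -0.03). On 12 arrays 5 of 12 same-numbered pairs and 17 of 36 others did. With the replicate block on the 8 arrays, 11 and 10 mitotic kinesins stayed called, Kifc5b being lost against rapamycin (limma adjusted p = 0.0523), and 0 transport kinesins passed, Kif3a (0.96, limma adjusted p = 0.059) and Kif1b (0.49, limma adjusted p = 0.068) being lost against DMSO.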
